A study of Mus musculus with 6 samples.

Results

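Trhde, Sema5b, Dpy19l3 and Phospho1 are 4 of the 3542 genes in the table deposited for the livers of mice lacking Mul1, and each is among the deepest falls there. They were picked by name for the size of that fall, so their levels in the 6 libraries are described here without a test. Liver was taken from 3 Mul1(+/+) and 3 Mul1(-/-) mice, all fed a high-fat diet (HFD) for 16 weeks, and its mRNA was sequenced. Mul1 encodes an E3 ubiquitin ligase of the outer mitochondrial membrane, and in Mul1(-/-) mice it is inactivated in the whole body, so the loss is not confined to hepatocytes. The study used male and female mice, and the labels give neither sex nor age for single libraries. The labels name hepatocytes as the cell type, while the material was pieces of liver tissue.

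The 4 genes belong to different pathways. Trhde encodes a membrane-bound zinc peptidase of the M1 aminopeptidase family, which inactivates thyrotropin-releasing hormone (TRH) outside the cell. Sema5b encodes a transmembrane semaphorin, a guidance molecule of growing axons whose outer part carries thrombospondin type 1 repeats. Dpy19l3 encodes an enzyme of the endoplasmic reticulum that links mannose to tryptophan residues, a modification (C-mannosylation) found on thrombospondin repeats and taken from the donor dolichol-phosphate-mannose. Phospho1 encodes a phosphatase that removes phosphate from phosphocholine and phosphoethanolamine and is best known for its part in the mineralization of bone. In liver, phosphocholine is also the precursor from which phosphatidylcholine is built.

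The sequences before the start sites are shown as description only, since the 4 genes were picked for being lower. None of the motifs searched is found in all 4 windows. They come from the RefSeq promoter table of GRCm38.p6, in which all 4 genes were found, and run 5′ to 3′ on the strand of the gene. Bases that GENCODE M21 places in an exon are left out, which leaves 245 bases for Trhde (chr10:114802308-114802552, minus strand), 33 for Sema5b (chr16:35541112-35541144, plus strand), 250 for Dpy19l3 (chr7:35754455-35754704, minus strand) and 249 for Phospho1 (chr11:95824250-95824498, plus strand). Capitals mark motif matches on either strand.
Trhde: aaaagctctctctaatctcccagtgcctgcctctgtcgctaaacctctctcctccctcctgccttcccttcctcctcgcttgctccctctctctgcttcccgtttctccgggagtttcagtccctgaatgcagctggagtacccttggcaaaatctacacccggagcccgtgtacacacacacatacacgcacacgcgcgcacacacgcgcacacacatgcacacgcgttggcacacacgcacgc
Sema5b: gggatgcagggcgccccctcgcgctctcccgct
Dpy19l3: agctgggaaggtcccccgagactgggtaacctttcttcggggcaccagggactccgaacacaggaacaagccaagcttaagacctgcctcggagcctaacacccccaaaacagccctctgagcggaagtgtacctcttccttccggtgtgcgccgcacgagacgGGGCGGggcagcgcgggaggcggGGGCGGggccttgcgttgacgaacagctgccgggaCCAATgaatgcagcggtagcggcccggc
Phospho1: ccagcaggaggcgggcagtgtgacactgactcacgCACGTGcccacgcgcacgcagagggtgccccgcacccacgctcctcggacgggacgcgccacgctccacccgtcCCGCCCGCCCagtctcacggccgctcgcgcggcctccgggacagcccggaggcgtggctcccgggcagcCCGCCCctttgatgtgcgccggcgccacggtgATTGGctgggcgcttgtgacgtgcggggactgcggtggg
Both strands of the 250 bases before each start were searched for AGGTCA (a nuclear receptor element), TATAAA (the TATA box), CCAAT (the CCAAT box), GGGCGG (the GC box), CACGTG (an E-box), TTCNNNGAA (a STAT element) and TGTTTAC (a forkhead element). The Dpy19l3 window held GGGCGG 2 times and CCAAT 1 time. The Phospho1 window held GGGCGG 3 times, with 2 of these matches overlapping, CCAAT 1 time and CACGTG 1 time. Of 32851 RefSeq promoter windows, 32.7% hold GGGCGG, while 33.8% hold CCAAT and 6.02% hold CACGTG, and the remaining motifs stand in 14.0% (AGGTCA), 12.4% (TATAAA), 7.02% (TTCNNNGAA) and 3.17% (TGTTTAC). None of the 7 motifs was found in the windows of Trhde and Sema5b. Only 33 of the 250 Sema5b bases lie before the GENCODE M21 start of the gene, so little of its upstream sequence was searched. The GC content of the whole 250 bases was 58% for Trhde, 72% for Sema5b, 65.6% for Dpy19l3 and 75.6% for Phospho1, above the median of 52.4% over all windows.

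The values are normalized counts, that is, reads per gene divided by a factor for each library. All genes in the table had an adjusted p-value of the authors of at most 0.05 on these same libraries. Their log2 fold changes by the authors were at least 1 in either direction. The paper itself states a limit of 0.01 for the adjusted p-value, which was not checked here. Between 11932163 and 15385822 reads per library lay on the genes of the table. The transcript of the targeted gene Mul1 stood at 38.2% of its Mul1(+/+) mean and was not lost (adjusted p = 0.0126 from limma, not past the threshold of 0.01), with 3276 ± 131 normalized counts for Mul1(+/+) and 1252 ± 436 for Mul1(-/-) (SD, n = 3 each). Mul1(-/-) replicates 2 and 3 stood apart in the lower genes: of the 1530 genes with a lower mean log2 value in Mul1(-/-), 73.3% had their lowest Mul1(-/-) value in replicate 2 and 61.5% had their highest in replicate 3.

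In each of the 4 genes every Mul1(-/-) value lay below every Mul1(+/+) value. The same held for 41.0% of the 3542 genes, and nothing is read from this, since the genes were chosen on it. Lower means were found for 43.2% of the table and higher means for 56.8%. Trhde kept 4.21% of its Mul1(+/+) mean, Dpy19l3 6.17%, Sema5b 7.10% and Phospho1 11.3%. A Mul1(-/-) mean under 10% of the Mul1(+/+) mean was found for 24 genes (0.678%), 3 of which are Trhde, Dpy19l3 and Sema5b. Ranked by the difference of the mean log2(normalized count + 1), Trhde had the fall at place 2, Phospho1 at place 4, Sema5b at place 9 and Dpy19l3 at place 10. Of these, the shallowest is Dpy19l3 at -3.90, and the next gene after it stands at -3.89. The median over the 1530 lower genes was -1.43.

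**Figure D1:**
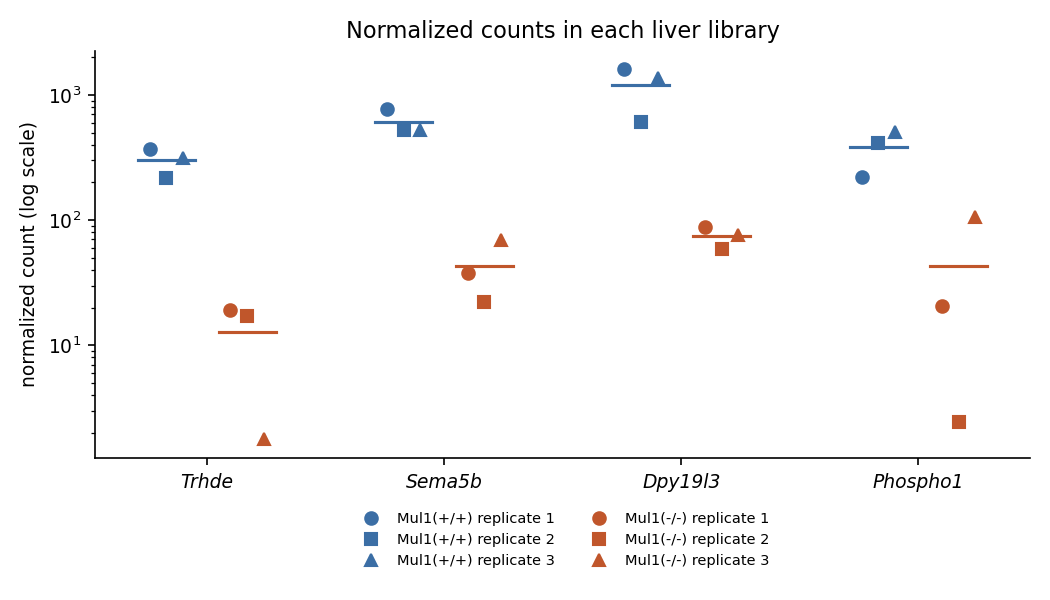
Normalized counts (y axis, log scale) of Trhde, Sema5b, Dpy19l3 and Phospho1 in 3 Mul1(+/+) (blue) and 3 Mul1(-/-) (orange) liver libraries, with a marker shape for each replicate and a bar at each group mean. The groups are separate in each gene, and the Mul1(-/-) points are close together for Dpy19l3 and widely spread for Phospho1 and Trhde.

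**Figure D2:**
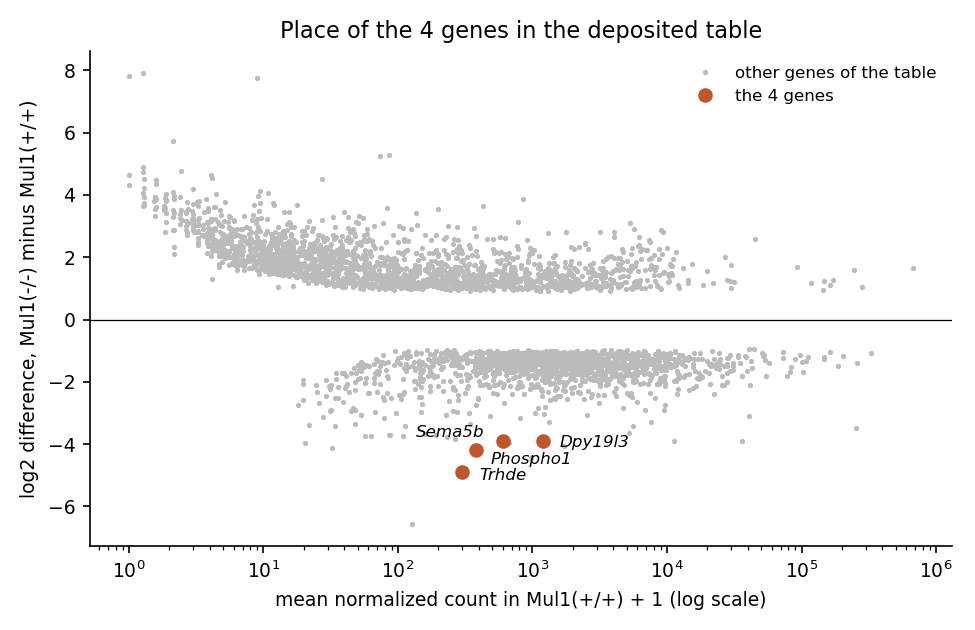
Log2 difference between Mul1(-/-) and Mul1(+/+) liver (y axis) against the mean normalized count in Mul1(+/+) liver plus 1 (x axis, log scale) for the 3542 genes of the table, each point a gene, with the 4 genes in orange. The 4 genes lie between -3.90 and -4.88 at middle levels of expression, and the empty band around 0 is the authors' selection.

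Trhde (ENSMUSG00000050663) occupies chr10:114398823-114802307 on the minus strand (GRCm38). Replicates 1, 2 and 3 of Mul1(+/+) held 368, 218 and 314 normalized counts, and those of Mul1(-/-) held 19, 17.15 and 1.76. The means were 300.2 ± 76.2 (SD, n = 3) and 12.6 ± 9.46 (SD, n = 3), and the log2 difference was -4.88. The lowest Mul1(+/+) value was 11.5 times the highest Mul1(-/-) value. Mul1(-/-) replicate 3 was the low library of this gene, against the order of most lower genes, 12.2% of which were lowest in that replicate. Its value rests on 2 reads, or 0.586% of the Mul1(+/+) mean with an exact 95% Poisson interval of 0.071% to 2.12%, where replicates 1 and 2 had 13 and 14 reads and lower bounds of 3.37% and 3.12%. These intervals cover counting error only. Without replicate 3 the log2 difference was -3.95. An antisense gene, Gm15723, shares 538 of the 8065 exonic bases of Trhde, and whether counting used strand is not given in the sources used here.

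Sema5b (ENSMUSG00000052133) occupies chr16:35541145-35664732 on the plus strand. It had 771, 527 and 524 normalized counts in the Mul1(+/+) mice, listed by replicate number, and 38, 22 and 69.4 in the Mul1(-/-) mice. The means were 607 ± 142 (SD, n = 3) and 43.1 ± 24.1 (SD, n = 3), a log2 difference of -3.91. Mul1(-/-) replicate 2 was lowest and replicate 3 highest, as in most lower genes of the table. The 3 Mul1(-/-) values rest on 26, 18 and 79 reads. The log2 difference was -4.32 without replicate 3 and -3.51 without replicate 2. A pseudogene on the other strand, Gm5963, lies inside Sema5b without touching its exons.

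Dpy19l3 (ENSMUSG00000043671) occupies chr7:35685165-35754454 on the minus strand, and no other GENCODE M21 gene overlaps it. By replicate number, the Mul1(+/+) libraries stood at 1609, 610 and 1377 normalized counts and the Mul1(-/-) libraries at 87.7, 58.8 and 75.5. The means were 1199 ± 523 (SD, n = 3) and 74 ± 14.5 (SD, n = 3), a log2 difference of -3.90. Here the spread was in the Mul1(+/+) group, where replicate 2 was low, and the Mul1(-/-) libraries were within 1.49 times of each other. The Mul1(-/-) values rest on 60, 48 and 86 reads. The log2 difference was -4.33 without Mul1(+/+) replicate 2.

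Phospho1 (ENSMUSG00000050860) occupies chr11:95824499-95832140 on the plus strand. In the order of the replicate numbers, 220, 416 and 507 normalized counts were found for Mul1(+/+) and 20.5, 2.45 and 106 for Mul1(-/-). The means were 381 ± 147 (SD, n = 3) and 43.1 ± 55.5 (SD, n = 3), so the Mul1(-/-) SD exceeded its mean. The highest Mul1(-/-) value was 43.4 times the lowest, and on the log2 scale the Mul1(-/-) SD of 2.48 was the largest among the 1530 lower genes, whose median was 0.54. Replicate 2 held 2 reads (0.643% of the Mul1(+/+) mean, exact 95% Poisson interval 0.0779% to 2.32%) and replicate 3 held 121 reads (27.9%, 23.1% to 33.3%). The size of the fall thus depended on the library: the log2 difference of -4.18 was -2.91 without replicate 2 and -5.39 without replicate 3. The lowest Mul1(+/+) value was 2.07 times the highest Mul1(-/-) value.

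The annotation of Phospho1 limits its value. Of its 2029 exonic bases in GENCODE M21, 1818 (89.6%) also belong to exons of Zfp652, a zinc finger gene on the same strand, and 1708 to exons of Abi3 on the other strand, which leaves 211 bases of its own. How reads on shared exons were assigned is not given in the sources used here. Zfp652, looked up after this overlap was seen, stood at 1783, 965 and 1706 normalized counts in the Mul1(+/+) and 643, 345 and 408 in the Mul1(-/-) mice, by replicate number, a log2 difference of -1.67. Its Mul1(-/-) values were lowest in replicate 2, as those of Phospho1 were, and highest in replicate 1, where those of Phospho1 were highest in replicate 3. The part of the shared exons in the Phospho1 values was not tested. Abi3 was not in the table, so its level is not known here.

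**Figure D3:**
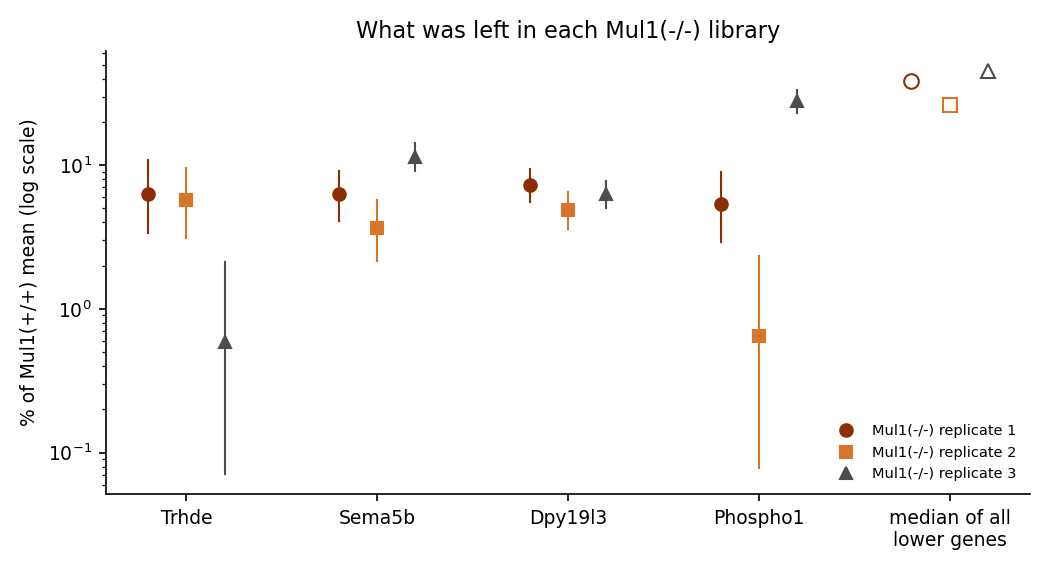
Normalized count in each Mul1(-/-) library as a percentage of the Mul1(+/+) mean (y axis, log scale) for the 4 genes, with exact 95% Poisson intervals of the reads as vertical lines, beside the median over the 1530 lower genes in open symbols without an interval. The open symbols stand at 38.4%, 26.2% and 45.3% in replicates 1 to 3, and all filled symbols but that of Phospho1 in replicate 3 lie at 11.4% or below.

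Levels were compared between genes per kilobase of exon. In Mul1(+/+) liver Phospho1 stood at 188 ± 72.3 normalized counts per kilobase (SD, n = 3), Dpy19l3 at 105 ± 46.0, Sema5b at 85.8 ± 20.03 and Trhde at 37.2 ± 9.45. Dpy19l3 and Sema5b did not differ beyond their spread, and Dpy19l3 and Phospho1 overlapped between libraries. In Mul1(-/-) liver the levels were 21.2 ± 27.3 for Phospho1, 6.51 ± 1.28 for Dpy19l3, 6.09 ± 3.40 for Sema5b and 1.57 ± 1.17 for Trhde. The order was the same, although the upper 3 did not differ beyond their spread. The Phospho1 level per kilobase depends on how its shared exons were counted.

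Long exonic length went with lower values in this table, and the 4 genes did not share it. Protein-coding genes were sorted by exonic length into 10 equal bins, from short to long. Sema5b (7080 bases) was in bin 8, Trhde (8065 bases) in bin 9 and Dpy19l3 (11367 bases) in bin 10, where 63.9%, 71.2% and 69.1% of genes were lower in Mul1(-/-). Phospho1 (2029 bases) was in bin 2, where 26.7% were lower and the median log2 difference was 1.31. The part of length in the 4 falls was not tested. In the genome, the protein-coding neighbours of Trhde and Sema5b were not in the table. It holds only genes that the authors selected, so the levels of these neighbours are not known here. Dpy19l3 lay between Zfp507 (log2 difference -1.52) and Pdcd5 (1.35), which differ in direction. The gene 5076 bases beyond Phospho1, Gngt2, was higher in Mul1(-/-), at 996 ± 452 (SD, n = 3) against 225 ± 61.5 (SD, n = 3).

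Genes with like profiles were looked for among the 2536 other genes with a mean of at least 50 in Mul1(+/+) liver. Likeness was the root mean square (RMS) difference of log2 values over the 6 libraries, with each gene centred on its own Mul1(+/+) mean. It uses the same libraries as the choice of the 4 genes, so it describes these libraries only. Nearest to Dpy19l3 was Scd1, the stearoyl-CoA desaturase gene, at an RMS difference of 0.33. Scd1 shared the low Mul1(+/+) replicate 2 and the narrow Mul1(-/-) range of Dpy19l3, with 315901, 145295 and 304171 normalized counts for Mul1(+/+) and 22412, 18184 and 24664 for Mul1(-/-), by replicate number. Sema5b was nearest to Cyp2c29, a cytochrome P450 gene, at 0.34. Its second place went to Ndst1, an enzyme gene of heparan sulfate synthesis, at 0.51, and Dpy19l3 stood at the third with 0.53. Dpy19l3 in turn had Sema5b in second place and Crybg3 at 0.58 after it. The nearest profiles of Phospho1, those of Adnp (0.79), Ugt1a1 (0.81) and Galnt2 (0.87), shared its high Mul1(-/-) replicate 3. Adnp and Ugt1a1 were also lowest in replicate 2, as Phospho1 was. The Adnp value there was 1.22 normalized counts, the value of 1 read in that library, so this low point is at the limit of counting. Ugt1a1 shares exons with its neighbours of the Ugt1a family, and Cyp2c29 has close paralogs, so the counts of both are uncertain. For Trhde the nearest were Derl3 at 1.19, Dpy19l3 at 1.20 and the processed pseudogene Gm15653 at 1.22. Among the 4 genes, Sema5b and Dpy19l3 were the closest pair (0.53), and Trhde and Phospho1 were the most distant (2.37).

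**Figure D4:**
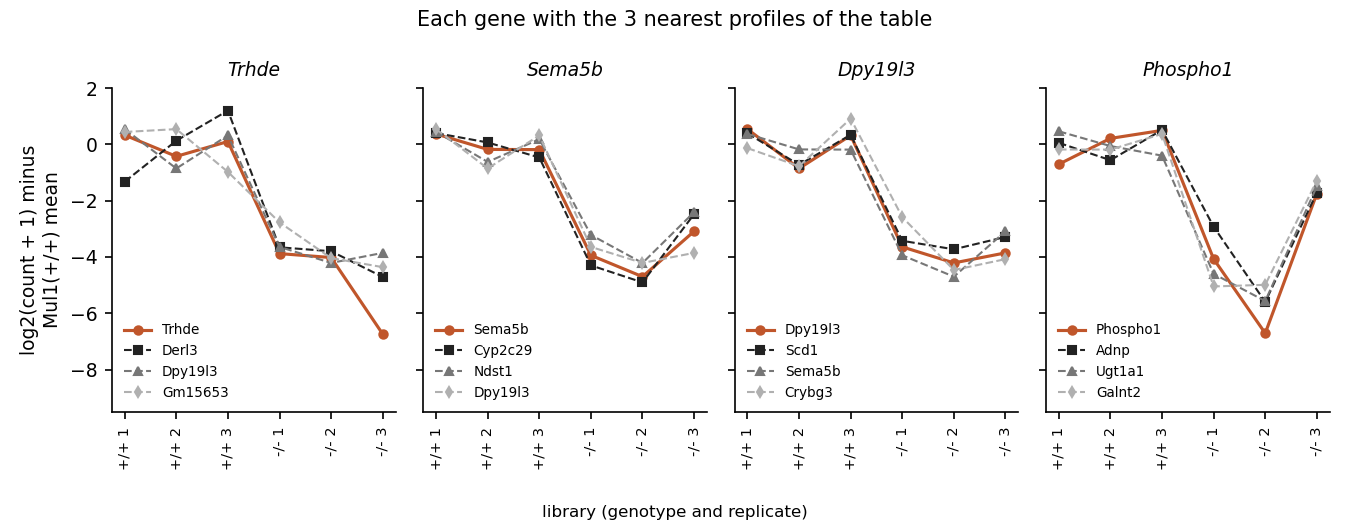
Log2(normalized count + 1) minus the Mul1(+/+) mean of the gene (y axis) in the 6 libraries (x axis, genotype and replicate), with a panel for each of the 4 genes (orange) and the 3 nearest profiles of the table (dashed); lines join points of a gene and imply no order of libraries. Dpy19l3 runs close to Scd1 and Sema5b to Cyp2c29, while Trhde leaves its nearest profiles in Mul1(-/-) replicate 3.

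Related genes were read from 7 lists written around the roles of the 4 genes. Apart from the 4 genes the lists hold 247 genes, of which 43 were in the table, 27 lower and 16 higher in Mul1(-/-). With limma, a gene passed when its log2 difference lay beyond 1 in either direction and its adjusted p was below 0.01. Since every gene of the table had already been selected for a difference on these libraries, the adjusted p-values are too small and are not error rates. They order the genes by the size of the difference relative to the spread between these libraries. Of the 43 genes 10 passed (23.3%), 5 lower and 5 higher, against 24.1% of all 3542 genes (7.43% lower and 16.7% higher), so the listed genes passed about as often as the table. The deepest fall among them was -2.16, and the median was -1.15. These 10 calls became 0 without Mul1(-/-) replicate 2 or without any of the Mul1(+/+) replicates 1 to 3 (27 to 38 of the genes then had an unadjusted p under 0.05), 3 without Mul1(-/-) replicate 1 and 29 when Mul1(-/-) replicate 3 was left out. In the fits that called 0 listed genes, 2471 to 3039 genes of the whole table had an unadjusted p under 0.05. The calls over the whole table moved with the same libraries, from 854 to between 10 and 2673.

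Around Trhde, 5 of 26 other genes of TRH and thyroid hormone action were in the table, 4 lower and 1 higher, and 2 passed. Pgpep1l, a relative of the pyroglutamyl peptidase gene Pgpep1, rose from 12.2 ± 2.83 to 58.5 ± 23.2 (SD, n = 3 each), with a log2 difference of 2.11 (adjusted p = 0.00769 from limma). Pgpep1, whose product can also cleave TRH inside cells, had a log2 difference of -1.08 and did not pass. The nuclear receptor gene Rxra and the thyroid hormone-responsive Me1 had differences of -1.48 and -1.44 and did not pass either. Of 11 other M1 aminopeptidase genes, Lnpep (-1.43), Rnpepl1 (-1.15) and Anpep (-1.15) were in the table. In limma's test 0 of them passed, with 3 at an unadjusted p under 0.05. So were 3416 of all 3542 genes, since the table was selected for this contrast.

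Around Sema5b, 9 of 42 other genes of semaphorins, their plexin and neuropilin receptors and their signalling were in the table, 7 lower and 2 higher. Mical2, encoding an oxidase that takes apart actin filaments, fell by 2.16 on the log2 scale, from 987 ± 228 to 237 ± 113 (SD, n = 3 each; adjusted p = 0.00796 from limma). Farp2, encoding an exchange factor for small GTPases, fell by 2.14, from 1039 ± 153 to 263 ± 148 (SD, n = 3 each; adjusted p = 0.00839 from limma). The receptor genes Nrp2, Plxna1, Plxnb2 and Nrp1 were lower with log2 differences from -1.46 to -1.07, and none of the 4 passed. Of the other semaphorin genes Sema4a stood at -1.42 and Sema3c, with overlapping groups, at 2.26, and neither passed.

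Around Dpy19l3, 6 of 33 other genes of the DPY19L family, of dolichol-phosphate-mannose and of related glycosylation were in the table, 5 lower and 1 higher. In limma's test 0 passed, with 6 at an unadjusted p under 0.05, as were 3416 of all 3542 genes. Pmm1 (phosphomannomutase, log2 difference -1.50), Dhdds (dolichol synthesis, -1.47), Alg3 (mannosyltransferase, -1.19) and Pomt2 (protein O-mannosylation, -1.17) were lower, and Dpm3, a subunit of dolichol-phosphate-mannose synthase, was higher (1.41). No other DPY19L gene was among them. Of 65 other listed genes for proteins with thrombospondin repeats or known C-mannosylation, 9 were in the table. All 9 had higher means in Mul1(-/-), where 56.8% of the table did, and 3 passed, where 24.1% of the table did. The stellate cell and fibroblast markers found in the table, Col3a1 (log2 difference 1.62) and Dcn (1.55), had higher means too. Their summed normalized count was 4314 to 5241 in Mul1(+/+) and 8482 to 28580 in Mul1(-/-) libraries. Only markers kept by the selection of the table enter this sum, so its separate ranges follow from that selection. The part of these cells in the higher means of the 9 genes was not tested. Adamts10, a matrix protease gene, rose from 116 ± 29.2 to 601 ± 334 (SD, n = 3 each), a log2 difference of 2.23 (adjusted p = 0.00796 from limma). Adamts5, another matrix protease gene, rose by 1.69 (adjusted p = 0.00835 from limma), and Lpl, the lipoprotein lipase gene, rose by 1.67 (adjusted p = 0.00939 from limma). Sspo had the largest difference of the list (2.74), with overlapping groups, and did not pass, and Rspo3, an activator of Wnt signalling, had one of 1.26 and did not pass.

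Around Phospho1, 9 of 58 other genes of choline and ethanolamine phospholipid metabolism were in the table, 8 lower and 1 higher, and 2 passed. Pcyt1a, encoding the rate-limiting enzyme that uses phosphocholine to make phosphatidylcholine, fell from 4610 ± 793 to 1190 ± 544 (SD, n = 3 each), a log2 difference of -2.03 (standard error 0.44, adjusted p = 0.00776 from limma). Sardh, encoding sarcosine dehydrogenase, an enzyme of choline breakdown, fell from 54121 ± 18258 to 15529 ± 4909 (SD, n = 3 each), a difference of -1.80 (adjusted p = 0.00921 from limma). Chdh, the choline dehydrogenase gene, stood at -1.60 and Aldh7a1 at -1.40 without passing, and Gdpd3, with few reads and overlapping groups, at 1.79. Of 14 other mineralization genes Spp1 and Mgp were in the table. Spp1, the osteopontin gene, rose from 1303 ± 297 to 4084 ± 666 (SD, n = 3 each; log2 difference 1.66, adjusted p = 0.00889 from limma), and Mgp stood at 2.26 and did not pass.

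**Figure D5:**
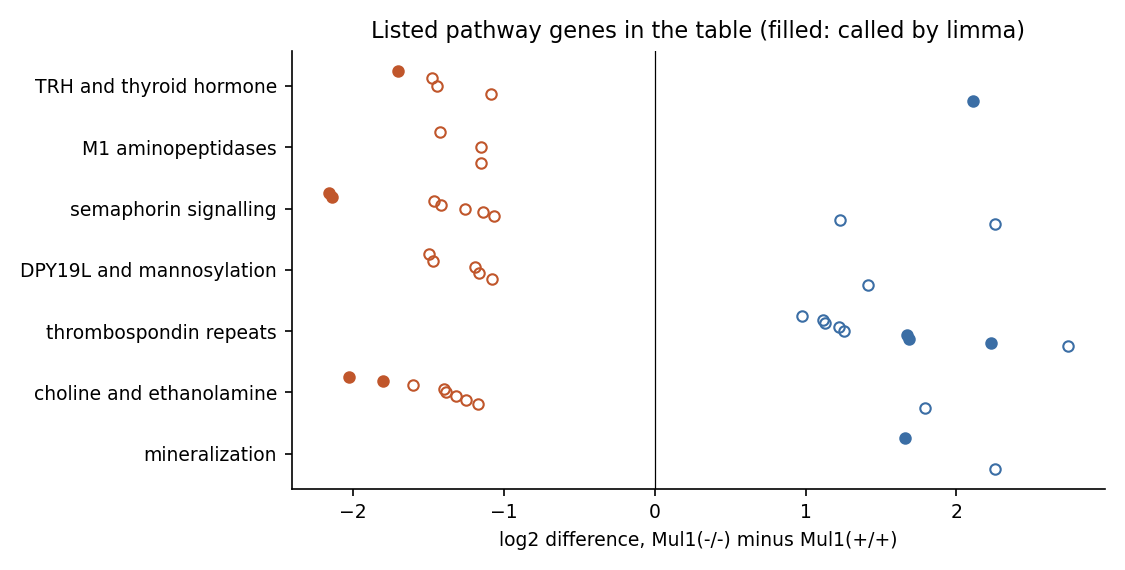
Log2 difference between Mul1(-/-) and Mul1(+/+) liver (x axis) of each listed gene found in the table, by list (y axis), without the 4 genes themselves; each point is a gene, orange where lower and blue where higher, filled where it passed limma's threshold and open where it did not. The 9 genes listed for thrombospondin repeats or known C-mannosylation are all to the right of 0, and 8 of the 9 choline and ethanolamine genes are to the left.

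Markers of cell types and of sex were read beside these results. Of 10 hepatocyte markers Apob (-1.05) and Hnf4a (-1.81) were in the table, lower and not past the threshold. Their summed normalized count ran from 85970 to 91705 in Mul1(-/-) and from 147515 to 240723 in Mul1(+/+) libraries. Apob made up most of this sum. By replicate number, Mul1(-/-) libraries held 77979, 80900 and 73380 for Apob and 11108, 5070 and 18325 for Hnf4a. The table held 6 of 10 markers of bile duct cells, each of them higher, among them Epcam (2.19, adjusted p = 0.00692 from limma), with a summed normalized count of 5081 to 5345 in Mul1(-/-) and 1354 to 1995 in Mul1(+/+) libraries. Spp1, counted above among the mineralization genes, is one of these 6 and made up most of their sum. It stood at 3336, 4304 and 4613 in Mul1(-/-) replicates 1, 2 and 3. Krt19, another of the 6, stood at 1151, 176 and 147 in the same libraries. Only markers kept by the selection of the table enter the hepatocyte and bile duct sums, so their separate ranges follow from that selection. In pieces of tissue, fewer cells of a type and less RNA per cell cannot be told apart. Both endothelial markers found were lower and both stellate cell markers found were higher, out of 10 listed for each, and none of these passed. Adipocyte, erythroid, lymphocyte, neutrophil and periportal lists had 1 gene each in the table, the pericentral list had 2 and the macrophage list 0. None of the 5 genes of the sex chromosomes that tell male from female was in the table. Of 21 genes with male-biased expression in mouse liver the table held 7, of which 4 were lower and 3 higher and Elovl3 passed (log2 difference -2.89), and of 21 with female-biased expression 7, with 5 lower and 2 higher. Of the 7 female-biased genes 3 passed, against 24.1% of the whole table. Cyp2a4 rose by 5.26, Sult1e1, an estrogen sulfotransferase gene, rose by 3.75, and Cyp2b9 fell by 2.90 on the log2 scale (adjusted p = 0.00179, 0.00697 and 0.00913 from limma). Cyp2a4 and Cyp2b9 have near-identical copies that can share reads. The part of cell composition and of sex in the 4 falls was not tested.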

How the data were processed

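mRNA-seq of liver from 3 Mul1(+/+) and 3 Mul1(-/-) mice on HFD was compared. Libraries were made, sequenced and analysed by GENEWIZ for the authors, who compared the genotypes with DESeq2. Aligner, counter, build, annotation and strand setting are not given in the sources used here. The deposited table holds normalized counts: the authors divided the counts of each library by its own factor, and wrote a dash for 0. It also holds the authors' log2 fold changes, p-values and adjusted p-values. Of these deposited values the log2 fold changes and adjusted p-values were read only to check that all 3542 rows meet limits of 1 and 0.05.

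Normalized counts were taken as deposited, 1 was added and log2 was taken. limma 3.58.1 in R 4.3.3 was fitted over all 3542 genes with genotype as the only term, with Benjamini-Hochberg adjustment over the table. Because all rows were selected for this contrast on these libraries, the adjustment is almost no penalty and the adjusted p-values are not valid error rates. The threshold, a log2 difference beyond 1 with an adjusted p-value below 0.01, is that of the study. No p-value is given for the 4 genes, since they were chosen on this contrast. With 3 mice per group an exact permutation test of a single gene cannot go below 0.1. Reads were recovered from the value of 1 read per library (100% of values under 10000 were whole within 0.1 of a read) and give exact Poisson intervals. The 4 genes, the lists and the tests were chosen with earlier results of these data known. Genes named are the 4 genes, Mul1, at most 5 genes of a pathway list by size of difference, at most 3 of a marker list, the 3 nearest profiles and the adjacent genes. Zfp652, Abi3, Gm15723, Gm5963, Rspo3, Nrp1, Plxna1 and Plxnb2 were named after values or overlaps were seen. A listed gene that passed is not reported here. Coordinates, exons and lengths are from GENCODE M21 (GRCm38), to which 3529 genes were matched. The authors' build may be another. Python 3.11.15 with pandas 2.3.3, scipy 1.17.1 and matplotlib 3.10.9 did the rest. The fit was tested on simulated data. Alternatives were other pseudocounts, a filter on low values, rescaled libraries, limma with a trend, an adjusted p-value limit of 0.05, a block for the replicate number, and fits without each library.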

Additional observations from a re-analysis of the deposited data

How the results depend on the processing

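The 4 genes were lower in Mul1(-/-) under every alternative run. With each library left out, the log2 difference ranged from -5.38 to -3.95 for Trhde, from -4.32 to -3.51 for Sema5b, from -4.33 to -3.63 for Dpy19l3 and from -5.39 to -2.91 for Phospho1. Rescaling the libraries by the median ratio over the table moved the median of all genes by -0.66, and Sema5b and Dpy19l3 stood at -4.55 and -4.56. These moves exceeded the log2 SD pooled over both groups (0.61 for Sema5b and 0.57 for Dpy19l3). They did not exceed the larger group SD, 0.81 in Mul1(-/-) for Sema5b and 0.75 in Mul1(+/+) for Dpy19l3. A pseudocount of 5 gave -4.28 for Trhde and -3.72 for Phospho1, the genes with libraries of 2 reads. The number of genes called over the table (854) was 1399 with a pseudocount of 5, 1318 after rescaling by the table's total, 1869 with a mean-variance trend, 3380 at an adjusted p-value under 0.05, and 10 to 2673 with each library left out. Called genes split into 591 higher and 263 lower, into 236 and 1030 after rescaling by the median ratio, and into 606 and 712 after rescaling by the table's total. Listed pathway genes called (10) were 20 after rescaling by the median ratio, 25 with a trend, 42 at an adjusted p-value under 0.05, and 0 to 29 with each library left out.

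With the replicate number as a block, limma called 0 genes over the table and 0 listed pathway genes, with 3314 and 42 at an unadjusted p under 0.05. Deviations of same-numbered libraries correlated at 0.0218, 0.352 and 0.0541 across genes, and those of differently numbered libraries at -0.200 to 0.132. These values do not settle whether the numbers pair the mice, and the main fit was left without the block. The block did not change the log2 differences of the 4 genes. The planned count tests (edgeR and DESeq2 on recovered reads) were not run. Depth limits Trhde in Mul1(-/-) replicate 3 and Phospho1 in Mul1(-/-) replicate 2, at 2 reads each.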
